A study of Mus musculus with 6 samples.

Results

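Neuropeptide genes were followed in the dorsal root ganglia of mouse embryos lacking Ybx1 in the neural crest lineage. The 10 genes Tac1, Calca, Calcb, Gal, Npy, Sst, Adcyap1, Nts, Nppb and Vip were picked by symbol, and all 10 were found among the 17971 genes of the deposited table. Dorsal root ganglia, which hold the cell bodies of sensory neurons and their glia, were taken at E13.5 from male embryos. The cKO group had 3 libraries from Wnt1-cre+/-;Ybx1fl/fl embryos, and the Ctrl group had 3 libraries from Ybx1fl/fl littermates. Both groups carried the floxed alleles, and Cre was present in cKO embryos alone, so loss of Ybx1, a cold-shock protein that binds mRNA, and presence of Cre cannot be told apart. Wnt1-driven Cre acts in the neural crest and the dorsal neural tube, so blood and endothelial cells of the ganglia keep Ybx1. The study looked for mRNAs that depend on Ybx1 in these ganglia. How many embryos went into a library is not stated.

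Sensory neurons make neuropeptides as larger precursors, which are cut, trimmed and often amidated in dense-core vesicles and then released from the nerve endings, where they act on G protein-coupled receptors. In the adult, substance P from Tac1 and calcitonin gene-related peptide (CGRP) from Calca and Calcb mark peptidergic pain-sensing neurons. Sst and Nppb mark a class of itch-sensing neurons in the adult mouse. Galanin, neuropeptide Y and vasoactive intestinal peptide are best known in adult ganglia for their induction after nerve injury.

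Depth was 16464264 to 17446385 estimated counts per library. Ybx1 stood at 137, 122 and 108 CPM (TMM-scaled counts relative to library size) in the cKO libraries and at 927, 809 and 817 CPM in the Ctrl libraries, so each library went with its genotype label. Genes that define sensory neurons were high in every library: 9 of them, including Pou4f1, Isl1 and Prph, summed to 6836 to 7722 TPM (a level scaled to transcript length and library) in cKO and 7124 to 7451 TPM in Ctrl. With the replicate number as a block, 3 of these 9 were called lower in cKO by edgeR: Isl1, Avil and Scn9a. Isl1 had a log2 fold change of -0.22, or -0.21 with the block (blocked edgeR adjusted p 0.00833). Avil had -0.22 (blocked edgeR adjusted p 0.0123) and Scn9a -0.18 (0.0237). Over all tested genes, 3.56% were called lower and 1.76% higher with the block. Of 12 sympathetic and autonomic neuron markers, 6 averaged under 1 TPM, among them Dbh (0.303 TPM), Phox2a (0.133 TPM) and Hand2 (0.267 TPM), while Th averaged 375 TPM and Chrna3 20.5 TPM. The 12 summed to 385 to 460 TPM in cKO and 354 to 404 TPM in Ctrl. Of the 6 that were tested, 5 log2 fold changes were positive (median 0.21), and Chrna3 was called higher in cKO with the block (edgeR adjusted p 0.0211). Red-cell genes reached 58985 summed TPM in cKO replicate 1, against 16166 to 27492 TPM in the other 5. All 9 of their log2 fold changes were positive (median 0.48, or 0.28 with the block), and none was called. The 8 satellite glia and Schwann markers summed to 2579 to 2603 TPM in cKO and 2420 to 2455 TPM in Ctrl. All 8 log2 fold changes were positive (median 0.19). With the replicate block 5 of them were called higher, against 1.76% of all tested genes. The 10 macrophage markers summed to 199 to 286 TPM in cKO and 174 to 194 TPM in Ctrl. All 10 log2 fold changes were positive (median 0.41), and 1 was called higher with the block. The part of glia, autonomic neurons, macrophages and red cells in the differences below was not tested. Fewer cells of a type and less RNA per cell cannot be told apart in such bulk samples.

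Calca and Calcb lie near each other on chromosome 7 and share sequence, which bears on how reads can be assigned to each of them. Their most similar ungapped stretch, within the coding sequence of the transcripts Calca-201 and Calcb-201, is 170 bases long with 159 identical bases. In the 2 lines below it is written 5′ to 3′ in lower case, with the 11 bases that differ in capitals (GRCm38, spliced over an exon junction; Calca chr7:114632458-114634495, minus strand; Calcb chr7:114720187-114722116, plus strand).
Calca: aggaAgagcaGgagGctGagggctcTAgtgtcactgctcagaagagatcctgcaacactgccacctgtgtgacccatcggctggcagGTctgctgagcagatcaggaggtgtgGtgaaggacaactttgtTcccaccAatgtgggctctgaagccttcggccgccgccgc
Calcb: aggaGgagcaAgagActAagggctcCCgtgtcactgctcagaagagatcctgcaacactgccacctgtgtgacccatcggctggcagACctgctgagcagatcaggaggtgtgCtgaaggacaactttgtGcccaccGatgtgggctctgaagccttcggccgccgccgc
The longest identical run was 60 bases. Of the 50-base windows of Calcb-201, 11 of 913 also occurred in a Calca transcript, and of the 75-base windows 0 of 888 did. Read length is not stated. All 6 estimated counts of each gene were whole numbers. No exon of the 10 genes overlapped an exon of another GENCODE M21 gene on either strand.

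The promoters of neuropeptide genes are a classic setting for the cyclic AMP response element, first worked out in Sst. The half-site letters TGACG, on either strand, occurred in the 300-base RefSeq promoter window (250 bases before to 50 after the start, GRCm38.p6) of 7 of the 9 neuropeptide genes with such a window, namely Tac1, Calca, Gal, Sst, Adcyap1, Nts and Vip. They occurred in 30.5% of the 14082 genes of the table with a window, and in 26.7% of 17701 windows. The full element TGACGTCA, which holds the half-site on both strands, occurred in Sst alone among the 9 and in 3% of genes. Below are the 120 bases before the start of 3 genes that hold the half-site, shown because their mean levels reach from 6.16 TPM (Calca) and 4 TPM (Sst) to 0.0567 TPM (Vip), with the matching letters in capitals. The start is the one used in the RefSeq promoter table; the gene spans given further on begin upstream of it, so the stretches of Calca and Sst lie within those spans and that of Vip overlaps its span (Calca chr7:114636358-114636477, minus strand; Sst chr16:23890845-23890964, minus strand; Vip chr10:5639098-5639217, plus strand).
Calca: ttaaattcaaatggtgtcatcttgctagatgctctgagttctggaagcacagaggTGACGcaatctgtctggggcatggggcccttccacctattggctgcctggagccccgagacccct
Sst: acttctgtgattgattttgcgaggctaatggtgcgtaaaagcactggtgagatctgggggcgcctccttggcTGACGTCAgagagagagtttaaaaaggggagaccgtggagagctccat
Vip: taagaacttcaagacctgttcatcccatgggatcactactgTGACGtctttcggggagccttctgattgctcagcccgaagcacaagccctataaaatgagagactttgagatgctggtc
A match of letters is a description and does not show that a factor binds there.

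Galanin mRNA dominated the neuropeptides of the ganglia at this stage. Gal (chromosome 19, 3409915 to 3414544, GRCm38, as are all gene positions here) averaged 752 ± 30.6 TPM in cKO and 733 ± 21.1 TPM in Ctrl (SD, n = 3 each). It ranked 178 among all genes by mean TPM and made up 85% of the summed TPM of the 10 genes. Npy followed at a mean of 65 TPM over the 6 libraries, and Adcyap1 at 38 TPM. Of the genes named above as adult markers of peptidergic and itch neurons, Tac1 averaged 11.3 TPM, Calca 6.16 TPM and Sst 4 TPM. Nts averaged 5.09 TPM. Calcb, Nppb and Vip were below 1 TPM, at 0.77, 0.6 and 0.0567 TPM. Ranges over the 6 libraries did not overlap between Gal and Npy, Npy and Adcyap1, Adcyap1 and Tac1, Tac1 and Calca, or Sst and Calcb. Neighbours whose ranges overlapped were Calca and Nts, Nts and Sst, Calcb and Nppb, and Nppb and Vip. The order did not follow raw counts: Adcyap1 had 1061 to 1272 counts and Npy 126 to 225, and Adcyap1 had about 6.24 to 6.49 counts per TPM relative to Gal, while Npy had 0.549 to 0.556.

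**Figure D1:**
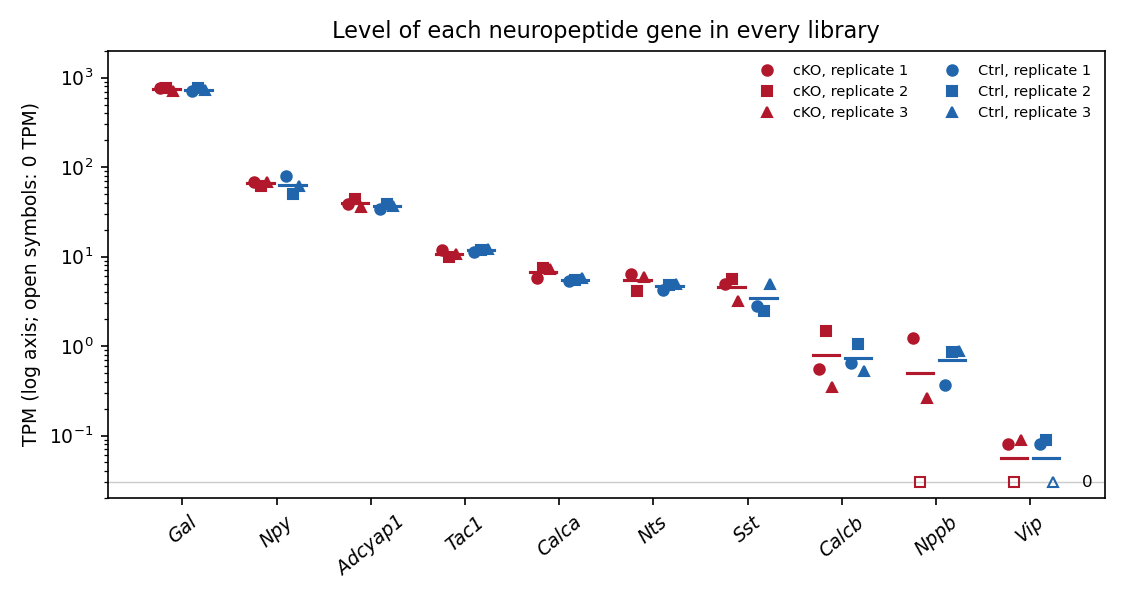
Level of each neuropeptide gene in TPM on a log axis, with 1 symbol per library (cKO in red, Ctrl in blue) and a bar at the mean of 3; open symbols mark 0 TPM. Gal lies between 717 and 774 TPM in all 6 libraries, and the cKO and Ctrl symbols of most genes intermingle.

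None of the neuropeptide genes was called different between cKO and Ctrl. Of the 10, 8 had enough counts to be tested, and Nppb and Vip did not. No tested gene passed the edgeR quasi-likelihood test at an adjusted p under 0.05, where 0.481% of all 14338 tested genes passed, and none with the replicate number as a block, where 5.33% of all genes passed. With the block, 1.76% of all genes were called higher and 3.56% lower in cKO. None of the 8 had an unadjusted p under 0.05 in either fit, and none was called by DESeq2, limma-voom or limma on TPM (DESeq2 gave no adjusted p for Calcb and Sst). Log2 fold changes (cKO over Ctrl) were positive for 6 of the 8 and negative for 2, with a median of 0.06, beside 0.0 over all tested genes. The 95% intervals differed widely in width between the genes, from the abundant Adcyap1 and Gal to the sparse Sst.

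Tac1 (chromosome 6, 7555061 to 7562978), the precursor gene of substance P and neurokinin A, had 5.25, 3.91 and 4.2 CPM in the cKO libraries, against 5, 4.76 and 4.9 CPM in the Ctrl libraries. The cKO values lay on both sides of the Ctrl values, with cKO replicate 2 lowest. The difference was -0.13 on the log2 scale (SE 0.15, 95% interval -0.47 to 0.20, edgeR adjusted p 0.84).

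Calca (chromosome 7, 114625981 to 114636910) encodes both calcitonin and CGRP by alternative splicing, which gene-level counts do not separate. It had 2.48, 2.86 and 2.68 CPM in the cKO libraries, against 2.27, 2.08 and 2.27 CPM in the Ctrl libraries. Every cKO value was above every Ctrl value, and Calca was the only one of the 8 tested genes whose groups did not overlap, as they did not for 16.6% of all tested genes (cKO above Ctrl in 7.83% and below in 8.77%). These values rest on 43, 49 and 46 counts in cKO and 39, 35 and 37 counts in Ctrl. The log2 fold change was 0.28 (SE 0.18, edgeR adjusted p 0.66), and the 95% interval, -0.12 to 0.67, spans a fold change of 0.922 to 1.59. With the replicate block the adjusted p was 0.492.

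Calcb (chromosome 7, 114716555 to 114723368) encodes the second form of CGRP. It had 11, 13 and 10 counts in the cKO libraries, against 10, 17 and 15 counts in the Ctrl libraries, and the groups overlapped. On counts, the log2 fold change was -0.34 (SE 0.33, 95% interval -1.05 to 0.37, edgeR adjusted p 0.795). The deposited TPM of Calcb did not follow its counts: the TPM values were 0.56, 1.48 and 0.35 in cKO and 0.65, 1.06 and 0.52 in Ctrl, so the highest TPM, in cKO replicate 2, belonged to 13 counts and a lower one, in Ctrl replicate 3, to 15 counts. The count per TPM, divided by that of Gal in the same library, was 3.75, 1.91 and 6.24 in cKO and 3.01, 3.5 and 6.36 in Ctrl, a 3.33-fold spread. For Tac1, Calca, Npy, Sst, Adcyap1 and Nts the spread was 1.01-fold to 1.04-fold. TPM of a gene depends on the transcripts to which its reads are assigned, and GENCODE lists 3 transcripts of Calcb. On log2(TPM + 1) the Calcb difference was 0.01, against -0.34 on counts.

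**Figure D2:**
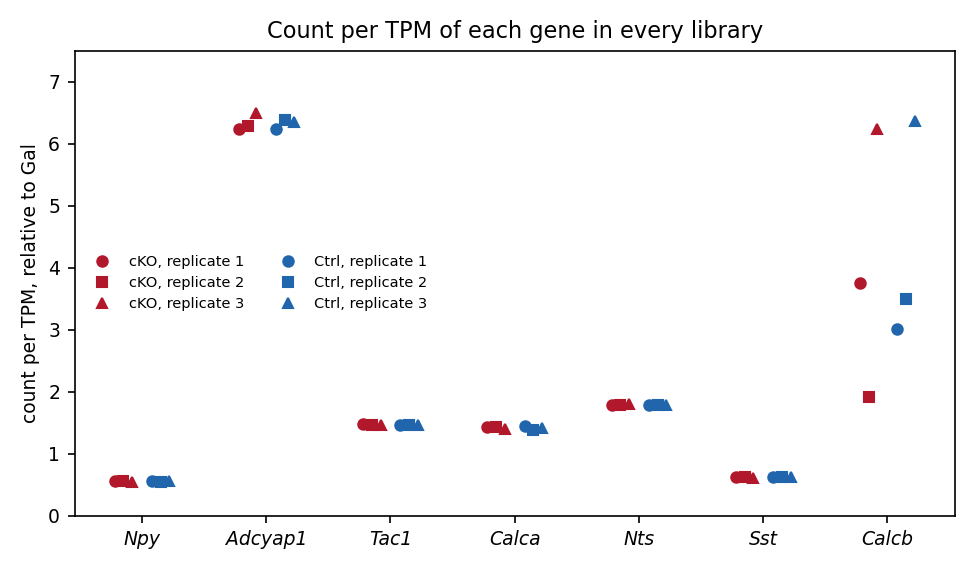
Count per TPM of 7 neuropeptide genes, divided by that of Gal in the same library, with 1 symbol per library (cKO in red, Ctrl in blue). Calcb runs from 1.91 to 6.36, while each of the other 6 genes keeps nearly the same ratio in all libraries.

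Gal, the galanin gene, had 234, 205 and 191 CPM in the cKO libraries, against 213, 207 and 202 CPM in the Ctrl libraries. The Ctrl values lay inside the range of the cKO values. With 3282 to 4058 counts per library it was among the most precisely measured of the 10. The log2 difference of Gal was 0.02 (SE 0.08, edgeR adjusted p 0.956), and the 95% interval, -0.16 to 0.20, spans a fold change of 0.898 to 1.15. With the replicate block the SE of Gal was 0.05 and the interval was -0.09 to 0.13.

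Npy (chromosome 6, 49822710 to 49829507), the neuropeptide Y gene, had 11.4, 9.23 and 9.97 CPM in the cKO libraries, against 13.1, 7.5 and 9.56 CPM in the Ctrl libraries. The highest value of each group came from replicate 1 and the lowest from replicate 2. For Npy the log2 difference was 0.02 (SE 0.18, 95% interval -0.36 to 0.40, edgeR adjusted p 0.98). With the replicate block the SE was 0.11 and the interval narrowed to -0.21 to 0.28. Npy is also known from sympathetic neurons, whose markers, given above, were in part near 0 and in part higher in cKO; their part in the Npy values was not tested.

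Sst (chromosome 16, 23889573 to 23891342), the somatostatin gene, had 16, 16 and 9 counts in the cKO libraries, against 9, 7 and 14 counts in the Ctrl libraries. The groups overlapped, with cKO replicate 3 at the level of Ctrl replicate 1. At 0.41 on the log2 scale its difference was the largest of the 8, with an SE of 0.38 (95% interval -0.41 to 1.23, edgeR adjusted p 0.786). A fold change of up to 2.34 lies within that interval. Spinal cord markers, a tissue that also makes Sst, Tac1 and Nts, summed to 2.96 to 4.89 TPM in cKO, highest in replicate 3, and to 2.25 to 2.93 TPM in Ctrl. All 12 had counts in at least 1 library, and 11 of them averaged under 1 TPM. Of the 3 that were tested, Pax6 was called higher in cKO, as were 0.112% of all tested genes. Among the cKO libraries, Sst was lowest in replicate 3, at 9 counts. The part of spinal cord tissue in the Sst values was not tested.

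Adcyap1 (chromosome 17, 93198245 to 93206541) encodes PACAP, a peptide that raises cyclic AMP through the receptor PAC1. It had 72.6, 74.3 and 62.7 CPM in the cKO libraries, against 62.5, 67.8 and 65 CPM in the Ctrl libraries. The 2 highest values were those of cKO replicates 1 and 2, and cKO replicate 3 lay among the Ctrl values. The log2 difference was 0.10 (SE 0.08, 95% interval -0.07 to 0.27, edgeR adjusted p 0.725, and 0.391 with the replicate block). With the block the interval was -0.03 to 0.23.

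Nts (chromosome 10, 102481756 to 102490418), the neurotensin gene, had 3.46, 1.99 and 2.86 CPM in the cKO libraries, against 2.27, 2.38 and 2.45 CPM in the Ctrl libraries. The Ctrl values lay close together and inside the range of the cKO values. For Nts the log2 difference was 0.23 (SE 0.22, 95% interval -0.25 to 0.71, edgeR adjusted p 0.799). It was 0.03 without cKO replicate 1 and 0.42 without cKO replicate 2.

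Nppb and Vip were at or near the limit of detection. Nppb (chromosome 4, 147985786 to 147987205), the gene of the itch transmitter BNP, had 7, 0 and 2 counts in the cKO libraries, against 2, 3 and 3 counts in the Ctrl libraries. Summed over the group these were 9 counts in cKO (exact Poisson 95% interval 4.12 to 17.1) and 8 in Ctrl (3.45 to 15.8); the intervals cover counting error only. Heart muscle genes, which mark the main known source of BNP, summed to 4.06 to 4.75 TPM in cKO and 3.4 to 5.31 TPM in Ctrl. Vip (chromosome 10, 5639193 to 5647617), which encodes vasoactive intestinal peptide, had 1, 0 and 1 counts in cKO and 1, 1 and 0 in Ctrl. A count of 0 allows up to 3 counts, or 0.173 to 0.184 CPM in these libraries, so a difference in Vip was not detectable at this depth.

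**Figure D3:**
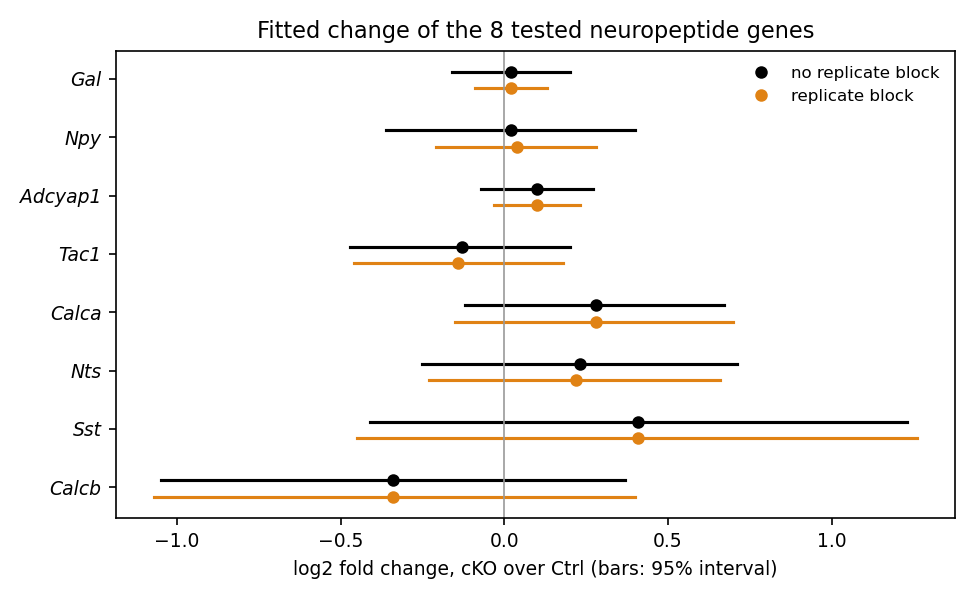
Log2 fold change of the 8 tested neuropeptide genes (cKO over Ctrl, edgeR) with 95% intervals, without and with the replicate number as a block. All intervals include 0. Without the block they run from the narrow ones of Adcyap1 (-0.07 to 0.27) and Gal (-0.16 to 0.20) to the wide one of Sst (-0.41 to 1.23).

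Differences within same-numbered libraries varied in size and mostly in sign. For Calca, cKO was above Ctrl by 0.13, 0.45 and 0.24 on the log2 CPM scale in numbers 1, 2 and 3; the single sign follows from groups that do not overlap and adds nothing to that description. Sst differed by 0.79 and 1.11 in numbers 1 and 2 and by -0.68 in number 3. Gal differed by 0.13, -0.01 and -0.08, and Npy by -0.20, 0.30 and 0.06. For Tac1, Calcb and Gal, cKO was higher in number 1 and lower in numbers 2 and 3.

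**Figure D4:**
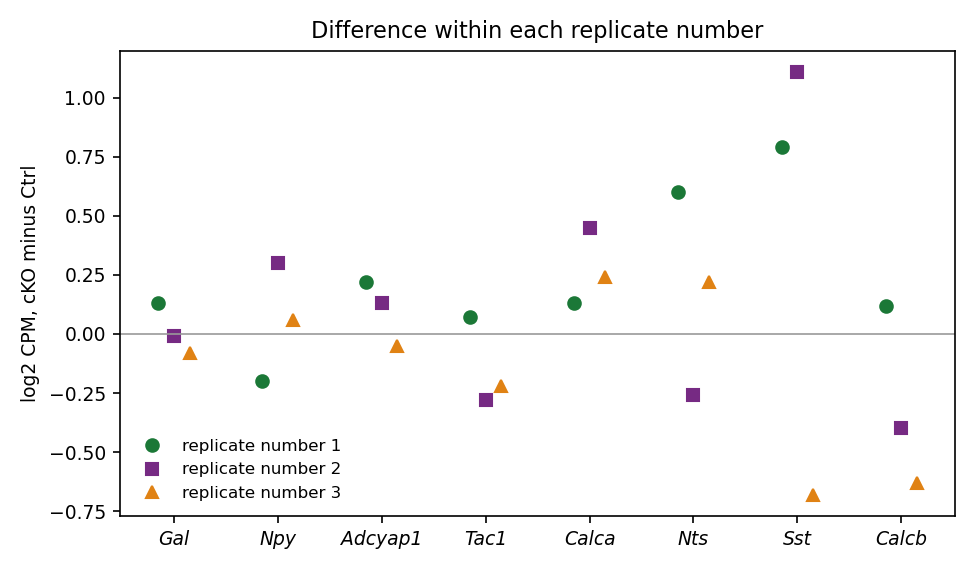
Difference in log2 CPM, cKO minus Ctrl, within each of the 3 replicate numbers for the 8 tested neuropeptide genes. The 3 points of Calca all lie above 0, from 0.13 to 0.45, and the other genes have points on both sides of 0.

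The rest of the neuropeptide system was described through 5 lists, of other neuropeptides, receptors, processing and vesicle genes, degrading enzymes and regulators of the peptidergic lineage. They hold 123 genes, 117 of them in the table and 84 tested. No listed gene passed the edgeR test at an adjusted p under 0.05; 16 (19% of those tested) had an unadjusted p under 0.05, as had 10.7% of all tested genes, and DESeq2 called 2. With the replicate block 7 were called, 3 higher and 4 lower in cKO, or 8.33% against 5.33% of all genes.

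Among the 30 receptor genes, 20 were tested, and 10 log2 fold changes were positive and 10 negative (median -0.00). With the replicate block 2 of the 20 rose, as did 1.76% of all tested genes. Sstr1, a somatostatin receptor gene, had 7.79, 8.23 and 6.36 CPM in the cKO libraries, against 4.07, 5.36 and 5.33 CPM in the Ctrl libraries. The groups of Sstr1 did not overlap, as for 16.6% of all tested genes (cKO above Ctrl in 7.83%). Sstr1 differed by 0.60 on the log2 scale (blocked SE 0.15, blocked edgeR adjusted p 0.0256; 0.139 without the block). The blocked adjusted p of Sstr1 was 0.0655 without the libraries numbered 1 and 0.137 without those numbered 2. Adcyap1r1, the gene of the PACAP receptor PAC1, had 43.5, 53.1 and 57.7 CPM in the cKO libraries, against 41, 44.4 and 45.2 CPM in the Ctrl libraries, and differed by 0.24 on the log2 scale (blocked SE 0.06, blocked edgeR adjusted p 0.0414; 0.404 without the block). That call was lost without the libraries numbered 2 (blocked adjusted p 0.281) and without those numbered 3 (0.174).

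By level, 15 of the 30 receptor genes reached a mean of 1 TPM. The highest were Npr2, the receptor for C-type natriuretic peptide, at 139 TPM (log2 fold change 0.16, edgeR adjusted p 0.663) and Ramp2, a partner of Calcrl in the adrenomedullin receptor, at 76.2 TPM (-0.02, adjusted p 0.969). Ramp1 and Galr1, both under 1 TPM, were named after their levels were seen. Ramp1, the partner that turns Calcrl into the CGRP receptor, averaged 0.242 TPM, while Calcrl averaged 5.54 TPM. The galanin receptor genes Galr2 and Galr1 averaged 4.5 and 0.988 TPM, against 743 TPM for Gal. The neuropeptide Y receptor gene Npy1r averaged 6.92 TPM, the substance P receptor gene Tacr1 1.76 TPM, and Npr1, the receptor gene for BNP, 3.9 TPM.

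All 25 processing and vesicle genes were tested and none was called with or without the block; 9 log2 fold changes were positive and 16 negative (median -0.04). The highest were Cpe, which trims basic residues from cut peptides, at 384 TPM (log2 fold change -0.05, edgeR adjusted p 0.864) and Rab3a, a vesicle GTPase gene, at 346 TPM (-0.09, adjusted p 0.788). The convertase genes Pcsk2 and Pcsk1, named after their values were seen, averaged 49.5 and 1.72 TPM.

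Of 10 peptide-degrading enzyme genes, 4 log2 fold changes were positive and 6 negative (median -0.12). Thop1 alone was called with the replicate block, and it rose, as did 1.76% of all tested genes. Thop1, an endopeptidase that cleaves neurotensin and other short peptides, had 85.3, 85.7 and 89.2 CPM in the cKO libraries, against 78.8, 71.1 and 71.9 CPM in the Ctrl libraries. Thop1 differed by 0.23 on the log2 scale (blocked edgeR adjusted p 0.0233; 0.198 without the block), and the call was lost without the libraries numbered 2 (blocked adjusted p 0.265) or 3 (0.0734). Thop1 was also the most highly expressed of the list, at 61.9 TPM, followed by Prep at 57.5 TPM (log2 fold change -0.08, edgeR adjusted p 0.769).

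Among 19 genes listed as regulators of the peptidergic lineage, 9 log2 fold changes were positive and 10 negative (median -0.01). The list is not confined to that lineage, since Isl1 is a factor of all sensory neurons. With the replicate block 4 of the 19 fell, as did 3.56% of all tested genes, and none was called in the main edgeR fit. The DESeq2 Wald test, without a block, called Ret (adjusted p 0.00463) and Cbfb (0.0164) lower. Unblocked edgeR without the filter on low counts called Ret (adjusted p 0.0439). Of the markers given above, 3 sensory neuron markers, Isl1 among them, were called lower with the block, and 5 glial markers were called higher. The part of these cell types in the 4 falls was not tested. Isl1, a transcription factor of all sensory neurons, had 466, 488 and 487 CPM in the cKO libraries, against 536, 568 and 569 CPM in the Ctrl libraries (log2 fold change -0.22, edgeR adjusted p 0.261; -0.21 and 0.00833 with the block). Cbfb, the partner of Runx1, had 222, 226 and 214 CPM in cKO, against 265, 279 and 258 CPM in Ctrl (-0.28, blocked edgeR adjusted p 0.0022; 0.112 without the block). Both calls were lost without the libraries numbered 2 (blocked adjusted p 0.148 for Isl1 and 0.0658 for Cbfb). Ret, a receptor gene of the GDNF family pathway, had 160, 189 and 170 CPM in cKO, against 219, 230 and 214 CPM in Ctrl (-0.36, blocked edgeR adjusted p 0.000665; 0.0719 without the block), and it was still called with the block when any 1 pair of same-numbered libraries was left out.

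Creb1, whose protein binds the cyclic AMP response element, had 90.4, 88.2 and 91.8 CPM in the cKO libraries, against 96, 104 and 109 CPM in the Ctrl libraries. Creb1 differed by -0.19 on the log2 scale, and its blocked edgeR adjusted p of 0.04996 lay just under the threshold (0.317 without the block). It was 0.425 without the libraries numbered 2 and 0.136 without those numbered 3.

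Other neuropeptide genes were low throughout. Of 39 listed genes 33 were in the table, 21 of these averaged under 1 TPM, and 10 were tested. None was called with or without the block, and 4 log2 fold changes were positive and 6 negative (median -0.27). The highest were Penk, the enkephalin precursor gene, at 21.6 TPM (log2 fold change 0.13, edgeR adjusted p 0.856) and Cck, the cholecystokinin gene, at 17.2 TPM (0.22, adjusted p 0.766). Grp, the gene of gastrin-releasing peptide, was named after its values were seen: it had 1.1, 1.81 and 1.57 CPM in cKO, against 3.37, 2.32 and 2.39 CPM in Ctrl. The groups did not overlap, as for 16.6% of all tested genes, and its log2 fold change of -0.85 (SE 0.25) had an edgeR adjusted p of 0.192, and 0.0664 with the block. Pnoc, also named after its values were seen, likewise had groups that did not overlap. Its log2 fold change was -0.86 (SE 0.31, edgeR adjusted p 0.311, and 0.159 with the block).

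**Figure D5:**
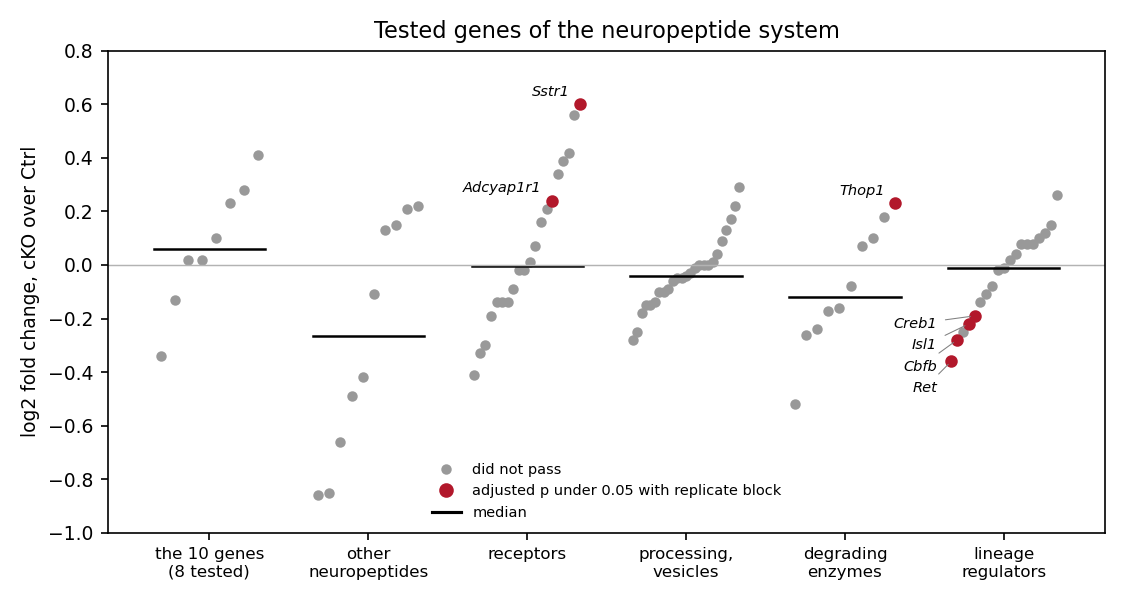
Log2 fold change (cKO over Ctrl, edgeR) of every tested gene among the 10 neuropeptide genes and the 5 lists, with the list median as a bar; red marks the 7 genes with an adjusted p under 0.05 with the replicate block. The 8 tested neuropeptide genes are all grey and run from -0.34 to 0.41.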

How the data were processed

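The data are bulk RNA-seq of dorsal root ganglia at E13.5. The submitters' processing notes name HISAT2 2.2.1, Bowtie2 2.4.5, RSEM 1.3.1 and the build GRCm38 (mm10), without roles or strand handling. The authors deposited estimated counts per gene (88.4% to 88.6% whole per library), with TPM and FPKM values; the deposited FPKM were not tested.

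Estimated counts were rounded. Of 17971 genes, edgeR's filterByExpr kept 14338 and removed 3633. The main test was edgeR 4.0.16 (R 4.3.3), TMM-scaled, quasi-likelihood, robust, two-sided, with p-values adjusted over all tested genes by Benjamini-Hochberg and called under 0.05. Each SE is the fold change over the root of its F statistic, and gives the 95% interval. The script was tested on simulated data.

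Replicates are separate biological samples by the design text. Libraries of 1 number, whose descriptions share a stem, deviated together: correlations across genes were 0.305, 0.208 and 0.201. The numbers were treated as pairs in the blocked fits and the within-number differences. The main fit has no block and so leaves the pairing out. It called 69 of all tested genes, against 764 with the block. Blocked values stand beside calls they change.

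The neuropeptide genes and lists were chosen with earlier results of these data known. Named are all 10 genes, Ybx1, receptors of at least 1 TPM, and in each list up to 4 called genes and the 2 highest by TPM; exceptions are marked, and some genes are not reported here. Alternatives were other scalings, no filter, DESeq2 1.42.0, limma 3.58.1 (voom, log2(TPM + 1), log2(TPM + 0.1)), the block, and left-out libraries. Positions and promoters come from RefSeq (GRCm38.p6), transcripts from GENCODE M21.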

Additional observations from a re-analysis of the deposited data

How the results depend on the processing

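No neuropeptide gene was called under any of the 20 alternatives, and adjusted p-values that could be computed were at least 0.116 (Adcyap1, with the replicate block and without the libraries numbered 3); DESeq2 gave none for Calcb and Sst. The block changed no call of the 10 genes. Some directions changed. Calcb had 0.01 on log2(TPM + 1), against -0.34 on counts. Gal had -0.06 without cKO replicate 1 and -0.04 without both libraries numbered 1, with or without the block. Leaving out 1 library gave -0.06 to 0.08 for Gal. For Npy it gave -0.15 (Ctrl replicate 2 left out) to 0.26 (Ctrl replicate 1), with -0.07 when cKO replicate 1 and -0.01 when Ctrl replicate 3 was left out. Npy had -0.09, or -0.08 with the block, without both libraries numbered 2. Other genes kept their direction when 1 library was left out: Tac1 -0.27 to -0.05, Calca 0.22 to 0.33, Calcb -0.55 to -0.18, Adcyap1 0.06 to 0.17, Nts 0.03 to 0.42 and Sst 0.21 to 0.75. Sst had 0.07 without both libraries numbered 2 and 0.97 without both numbered 3. Among the listed genes, Penk ranged from -0.05 (without Ctrl replicate 2) to 0.31 over single libraries left out, and had -0.09, or -0.10 with the block, without both libraries numbered 2. Ramp2 ranged from -0.11 to 0.11 likewise, with 0.06 without Ctrl replicate 1, and had 0.05 without both libraries numbered 3, with or without the block. The cause of these changes was not tested.

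Over all tested genes 69 were called, against 764 with the replicate block, 44 with library totals, 128 without a filter, 183 with DESeq2, and 15 with limma on either TPM scale. Leaving out 1 library gave 18 (without Ctrl replicate 3) to 104 (without cKO replicate 1). Without the libraries numbered 1, 2 or 3 the counts were 731, 8 and 2, and with the block 1252, 260 and 836. Of the listed genes 0 were called, against 7 with the block, 1 without a filter, 2 with DESeq2, and 8 without the libraries numbered 1; with the block, 12, 1 and 9 were called without the libraries numbered 1, 2 or 3. Leaving out 1 library called 0 to 0 of them. Depth most limits Calcb, Sst, Nppb and Vip, each with at most 17 counts in a library. It also limits Calca (35 to 49 counts per library), Nts (34 to 60) and Tac1 (67 to 91).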
